A study of Homo sapiens with 8 samples.

Results

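The oxidative phosphorylation subunits are the protein parts of the respiratory complexes I to IV and of ATP synthase, complex V. They were taken here as the genes whose symbols begin with NDUFA, NDUFB, NDUFC, NDUFS, NDUFV, SDHA to SDHD, UQCR, COX4 to COX8 or ATP5, leaving out assembly factors and antisense names. Of 86 such genes with a probe, 84 were analysed, each with a probe that rose well above background on the 2 arrays of some group, out of 16955 genes measured in this way. COX4I2 and the pseudogene UQCRBP1 were well above background on 0 arrays and were left out. The 84 genes comprised 37 of complex I, 5 of complex II, 8 of complex III, 15 of complex IV and 19 of complex V, and 83 are annotated as protein coding, the exception being the pseudogene SDHAP4. The name rule also took ATP5IF1, an inhibitor of ATP synthase, and COX7A2L, a factor that joins complexes III and IV, and it missed CYC1 of complex III and COXFA4 of complex IV, which are given separately.

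OVSAHO and KURAMOCHI, established cell lines derived from serous ovarian carcinoma, had each been cultured with simvastatin or with L-778123, and RNA of these 4 groups was measured on 8 one-color arrays, 2 per group. Simvastatin blocks HMG-CoA reductase at the head of the mevalonate pathway. L-778123 inhibits the transferases that attach farnesyl and geranylgeranyl groups to proteins. The comparison of both drugs asks what simvastatin does beyond the loss of protein prenylation only if both reduced prenylation alike, which was not tested. No untreated arrays were analysed here, so a gene that was lower with simvastatin cannot be told apart from one that was higher with L-778123. Doses and times of these cultures were not given in the labels, and the labels do not say whether the 2 arrays of a group came from separate cultures, so p-values measure only the spread between these arrays.

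Oxidative phosphorylation passes electrons from NADH through complex I and from succinate through complex II to coenzyme Q, on to complex III, cytochrome c and complex IV, and finally to oxygen. The protons pumped on the way drive ATP synthase. A small set of core subunits is encoded in the mitochondrial genome, and all genes described here are nuclear, so the cell has to match their output. Coenzyme Q carries an isoprenoid tail that is itself made from the mevalonate pathway.

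A level is given as the log2 intensity of the gene's brightest probe minus that of the array's 75th percentile, and a difference on this scale of 1 is a 2-fold change. Levels of different genes come from different probes and were not set against each other. Differences were tested with limma over all measured probes with Benjamini-Hochberg adjustment, and a gene was called lower or higher at an adjusted p under 0.05. Arrays of a group correlated at 0.9949 to 0.9958, and between 51.8% and 57.5% of probes were well above background on an array. Of the 12 epithelial and serous markers, all were well above background on all 8 arrays, PAX8 and WT1 among them. PECAM1, COL1A2, DCN, LUM and HBB, markers of endothelium, fibroblasts and red cells, were well above background on 0 arrays. PTPRC, CD14, VWF and CDH5 were above it on 8 arrays, CD3E on 1, and COL1A1, COL3A1 and PDGFRB on 4. COL3A1 averaged -6.68 in OVSAHO and 1.35 in KURAMOCHI, and the part of these genes in the results was not tested.

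Most subunit genes were lower with simvastatin than with L-778123 in both cell lines, by modest amounts. In OVSAHO, 58 of 84 were lower and 3 were higher, where 27.5% of all measured genes were lower and 26.4% higher. In KURAMOCHI, 46 were lower and 2 were higher, where 18.4% of all genes were lower and 17.1% higher. The median difference of the 84 genes was -0.33 in OVSAHO and -0.23 in KURAMOCHI, against 0.01 for all genes in each line. Among the genes called lower the fold ran from 1.14 to 2.45 with a median of 1.33 in OVSAHO, and from 1.14 to 1.65 with a median of 1.23 in KURAMOCHI. Lower by at least 2-fold were 2 genes in OVSAHO, ATP5MC1 and UQCRH, where 5.89% of all genes passed that limit, and 0 in KURAMOCHI, where 2.94% did. Higher by at least 2-fold were 0 in either line, where 5.69% of all genes in OVSAHO and 2.44% in KURAMOCHI passed it.

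Taken array by array, both simvastatin arrays lay below both L-778123 arrays for 71 of 84 genes in OVSAHO and likewise for 71 in KURAMOCHI, 84.5% in each case, where 39.7% and 36.8% of all genes did so. The direction was negative for 78 genes in OVSAHO, 73 in KURAMOCHI and 72 in both. Lower in both lines were 41 genes, where 12.4% of all genes were, and higher in both were 2, where 10.6% were. A further 17 were called lower in OVSAHO only and 5 in KURAMOCHI only, which does not show that the lines differed at these genes. The KURAMOCHI count was the less stable one. It was 15, 20, 15 and 19 without simvastatin array 1, simvastatin array 2, L-778123 array 1 and L-778123 array 2 of that line, while the OVSAHO count stayed between 46 and 54 whichever array was left out.

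**Figure D1:**
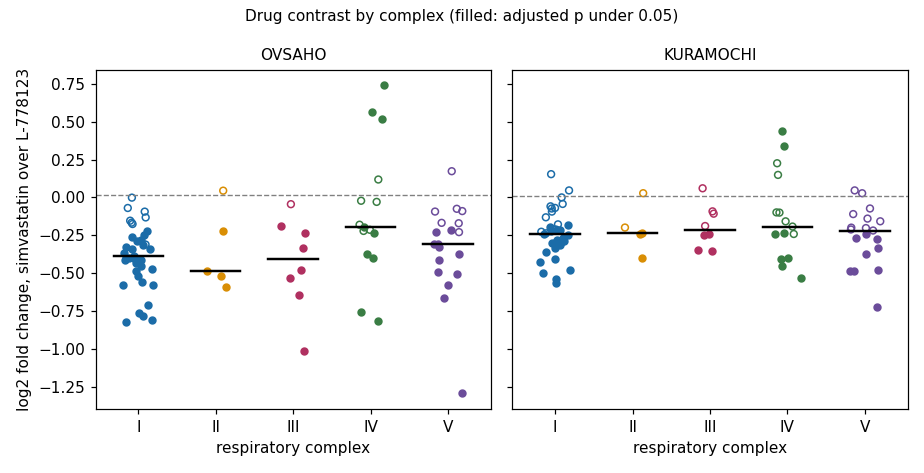
Log2 fold change of simvastatin over L-778123 for each of the 84 subunit genes, by complex, in OVSAHO and KURAMOCHI; filled points passed the test, open points did not, black lines are medians of a complex and the dashed line is the median of all measured genes. The medians of all complexes lie below the dashed line in both lines, and the 3 highest points of complex IV in OVSAHO are COX8C, COX6B2 and COX6A2.

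All complexes took part. In OVSAHO, 29 of 37 genes of complex I, 4 of 5 of complex II, 7 of 8 of complex III, 6 of 15 of complex IV and 12 of 19 of complex V were lower. In KURAMOCHI the counts were 24, 3, 4, 6 and 9 in the same order. The medians ran from -0.49 for complex II to -0.20 for complex IV in OVSAHO and only from -0.24 for complex I to -0.19 for complex IV in KURAMOCHI. Every gene called higher belonged to complex IV, and each of them is a tissue-restricted isoform.

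Promoter sequence is shown for 7 genes that the results below return to: the 2 with the largest decreases in OVSAHO, 4 genes whose promoters hold a motif of a factor known to control respiratory genes, and COX8C, which went the other way. Each stretch is the 100 bases before the annotated start on the strand of the gene, from the RefSeq promoter table of build GRCh38.p14. Capitals mark matches, on either strand, to GCGCANGCG, the core of the site of NRF1 (nuclear respiratory factor), or to CCGGAAG, that of ETS factors such as GABPA. The positions are chr5:1801307-1801406 on the plus strand for NDUFS6, chr12:4649014-4649113 plus for NDUFA9, chr3:48609647-48609746 minus for UQCRC1, chr11:112086773-112086872 plus for SDHD, chr1:46303598-46303697 plus for UQCRH, chr14:93347082-93347181 plus for COX8C and chr17:48892687-48892786 plus for ATP5MC1. NDUFS6, NDUFA9, UQCRC1 and COX8C hold the NRF1 motif, SDHD and UQCRH hold the ETS motif, and ATP5MC1 holds neither in this window. The 4 genes shown for their motif were all called lower in OVSAHO, and other named genes with a motif are not shown. Among those, SDHA and ATP5MC2 hold the NRF1 motif and COX5B the ETS motif in this window. None of them passed the test in either line.
NDUFS6: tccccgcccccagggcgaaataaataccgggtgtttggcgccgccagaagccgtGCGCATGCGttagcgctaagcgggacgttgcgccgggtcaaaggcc
NDUFA9: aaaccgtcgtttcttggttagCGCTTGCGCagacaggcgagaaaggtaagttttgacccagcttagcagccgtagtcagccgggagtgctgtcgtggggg
UQCRC1: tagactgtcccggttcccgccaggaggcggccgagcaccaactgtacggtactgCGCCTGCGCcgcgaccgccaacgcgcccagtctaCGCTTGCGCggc
SDHD: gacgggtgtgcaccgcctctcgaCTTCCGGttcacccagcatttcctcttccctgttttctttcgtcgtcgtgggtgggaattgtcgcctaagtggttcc
UQCRH: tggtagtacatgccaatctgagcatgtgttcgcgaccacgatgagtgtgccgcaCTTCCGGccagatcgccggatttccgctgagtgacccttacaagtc
COX8C: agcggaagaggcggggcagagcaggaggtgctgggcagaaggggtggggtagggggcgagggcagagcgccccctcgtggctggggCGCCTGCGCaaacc
ATP5MC1: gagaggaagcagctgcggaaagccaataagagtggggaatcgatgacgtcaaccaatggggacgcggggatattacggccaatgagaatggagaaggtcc

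Over the whole promoters, from 250 bases before to 50 after the start, 70 of the 84 genes had an entry. The NRF1 motif stood in 23 of the 70, or 32.9%, against 7.52% of all 35116 promoters of the table and 13% of those of measured genes. The ETS motif stood in 20, or 28.6%, against 10.3% and 16.6%, and AANATGGCG, the motif of YY1, in 16, or 22.9%, against 3.19% and 5.8%. Both strands were searched, and a match is a description of the letters and not a bound site. In OVSAHO, 19 of the 23 genes with the NRF1 motif were lower, at a median of -0.41, and 29 of the 47 without it, at a median of -0.29. In KURAMOCHI these were 14 of 23 and 24 of 47, at medians of -0.24 and -0.23. For the YY1 motif the counts were 14 of 16 with and 34 of 54 without it in OVSAHO, and 13 of 16 and 25 of 54 in KURAMOCHI. For the ETS motif they were 14 of 20 with and 34 of 50 without it in OVSAHO, and 10 of 20 and 28 of 50 in KURAMOCHI. No test was made of these counts.

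Complex I takes electrons from NADH. All 7 of its core subunits that are encoded in the nucleus were lower in OVSAHO, at a median of -0.37, and 6 of 7 in KURAMOCHI, at a median of -0.27, the exception being NDUFS3. Of the 30 accessory subunits, 22 were lower in OVSAHO and 18 in KURAMOCHI, and 0 were higher. The largest decrease of a complex I gene in OVSAHO was that of NDUFS6, a zinc-binding accessory subunit whose promoter stretch is shown above. Its levels were 5.53 and 5.59 with simvastatin and 6.34 and 6.42 with L-778123 in OVSAHO, and 5.66 and 5.61 with simvastatin and 6.18 and 6.10 with L-778123 in KURAMOCHI. Both simvastatin arrays lay below both L-778123 arrays in either line, and for each drug the lines lay close together. The drug difference was -0.82 (SE 0.0648, adjusted p = 0.000331) in OVSAHO and -0.50 (SE 0.0648, adjusted p = 0.00363) in KURAMOCHI, where NDUFA9 and NDUFB3 fell further.

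NDUFS8, a core subunit that carries iron-sulfur clusters, had levels of 5.61 and 5.59 on the simvastatin arrays of OVSAHO, 6.39 and 6.41 on its L-778123 arrays, 6.47 and 6.50 on the simvastatin arrays of KURAMOCHI and 6.69 and 6.65 on its L-778123 arrays. The OVSAHO simvastatin arrays stood clear below the other 6, which lay close together. Its difference was -0.81 (SE 0.0514, adjusted p = 0.000158) in OVSAHO and -0.18 (SE 0.0514, adjusted p = 0.0430) in KURAMOCHI, and the second call was lost in 14 of the 18 other settings of the analysis that were tried, 8 of which each left out 1 array. NDUFB3, an accessory subunit of the membrane arm, had levels of 5.88 and 5.95 with simvastatin and 6.75 and 6.65 with L-778123 in OVSAHO, and 6.47 and 6.43 with simvastatin and 7.06 and 6.93 with L-778123 in KURAMOCHI. In either line its simvastatin arrays were the lower ones, with a difference of -0.78 (SE 0.0735, adjusted p = 0.000592) in OVSAHO and -0.54 (SE 0.0735, adjusted p = 0.00425) in KURAMOCHI. NDUFA9, an accessory subunit near the coenzyme Q site, had levels of 2.02 and 2.07 on the simvastatin arrays of OVSAHO, 2.83 and 2.79 on its L-778123 arrays, 2.23 and 2.25 on the simvastatin arrays of KURAMOCHI and 2.85 and 2.76 on its L-778123 arrays. Here the 4 simvastatin arrays of both lines lay below all 4 L-778123 arrays, at -0.76 (SE 0.0595, adjusted p = 0.000311) in OVSAHO and -0.56 (SE 0.0595, adjusted p = 0.00187) in KURAMOCHI.

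Other core subunits moved less. NDUFV1, which binds NADH, fell by 0.40 in OVSAHO and by 0.29 in KURAMOCHI on the log2 scale. NDUFS1, the largest iron-sulfur subunit, fell by 0.29 and 0.25. NDUFS4, an accessory subunit needed to keep the NADH-binding part in place, differed by -0.09 (SE 0.0574, adjusted p = 0.226) in OVSAHO, which did not pass, and by -0.20 (SE 0.0574, adjusted p = 0.0483) in KURAMOCHI, a call lost in 16 of the 18.

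Complex II oxidises succinate and is also an enzyme of the TCA cycle. SDHC, a membrane anchor, had levels of 5.43 and 5.52 with simvastatin and 6.07 and 6.07 with L-778123 in OVSAHO, and 5.66 and 5.65 with simvastatin and 6.04 and 6.08 with L-778123 in KURAMOCHI. The simvastatin arrays were lower in both lines, at -0.59 (SE 0.0571, adjusted p = 0.000659) in OVSAHO and -0.40 (SE 0.0571, adjusted p = 0.00490) in KURAMOCHI. One of its 3 probes did not follow and was not past the test in either line. SDHB, the iron-sulfur subunit, was lower at -0.49 (SE 0.0594, adjusted p = 0.00153) in OVSAHO and -0.23 (SE 0.0594, adjusted p = 0.0330) in KURAMOCHI, and SDHD, the other anchor, at -0.52 (SE 0.0794, adjusted p = 0.00342) in OVSAHO, with -0.20 (SE 0.0794, adjusted p = 0.112) in KURAMOCHI not past the test. The KURAMOCHI call of SDHB was lost in 12 of the 18 alternatives. SDHA, the flavoprotein that holds the succinate site, had levels of 6.51 and 6.61 on the simvastatin arrays of OVSAHO, 6.54 and 6.49 on its L-778123 arrays, 6.34 and 6.21 on the simvastatin arrays of KURAMOCHI and 6.48 and 6.01 on its L-778123 arrays and did not pass in either line. Its KURAMOCHI arrays with L-778123 were far apart. With the median of its 4 probes in place of the brightest one SDHA stood at -0.28 in KURAMOCHI and was called lower. SDHAP4, a pseudogene of SDHA, was lower in both lines at -0.22 (SE 0.0543, adjusted p = 0.0195) in OVSAHO and -0.24 (SE 0.0543, adjusted p = 0.0222) in KURAMOCHI, and its probe may also read SDHA transcripts. Its call was lost in 6 of the alternatives in either line.

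Complex III hands electrons to cytochrome c, and UQCRH, its hinge subunit, is placed where cytochrome c docks. UQCRH had levels of 0.79 and 0.94 with simvastatin and 1.90 and 1.85 with L-778123 in OVSAHO, and 8.58 and 8.54 with simvastatin and 8.71 and 8.59 with L-778123 in KURAMOCHI. In OVSAHO the simvastatin arrays were clearly the lower ones, and in KURAMOCHI the arrays of both drugs lay close together. The drug difference was -1.01 (SE 0.0798, adjusted p = 0.000329) in OVSAHO, a fold of 2.02, and -0.09 (SE 0.0798, adjusted p = 0.426) in KURAMOCHI, which did not pass. A second probe gave -0.75 in OVSAHO, called lower, and -0.15 in KURAMOCHI. The near-identical copy UQCRHL had no probe of its own, and a probe for UQCRH may read it.

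UQCRC1, a core protein of complex III, was lower in both lines, at -0.48 (SE 0.0670, adjusted p = 0.00253) in OVSAHO and -0.35 (SE 0.0670, adjusted p = 0.0128) in KURAMOCHI. UQCRFS1, the Rieske iron-sulfur protein, was lower in OVSAHO at -0.19 (SE 0.0595, adjusted p = 0.0452), a call lost in 12 of the alternatives, and stood at -0.11 (SE 0.0595, adjusted p = 0.225) in KURAMOCHI. UQCRB, a small subunit by the coenzyme Q site, was the only member of complex III not called in OVSAHO, at -0.04 (SE 0.0769, adjusted p = 0.662). Its second probe, against another transcript, was instead called higher in both lines, by 0.57 and 0.73, and the median of both probes was higher in OVSAHO by 0.26.

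Complex IV, cytochrome c oxidase, had the weakest shift and the genes that rose. COX7B, a small subunit, had levels of 7.18 and 7.29 on the simvastatin arrays of OVSAHO, 7.98 and 7.995 on its L-778123 arrays, 5.99 and 5.95 on the simvastatin arrays of KURAMOCHI and 6.51 and 6.50 on its L-778123 arrays. Within each line the simvastatin arrays were lower, with differences of -0.75 (SE 0.0604, adjusted p = 0.000347) in OVSAHO and -0.53 (SE 0.0604, adjusted p = 0.00239) in KURAMOCHI. COX8A, COX7A2 and COX6A1, named after their values were seen, were also lower in both lines. They stood at -0.40, -0.24 and -0.20 in OVSAHO and at -0.40, -0.45 and -0.24 in KURAMOCHI. COX4I1, COX5A, COX5B and COX7A2L, named whatever their values, moved little. COX4I1 stood at -0.21 (SE 0.0839, adjusted p = 0.0835) in OVSAHO and -0.16 (SE 0.0839, adjusted p = 0.209) in KURAMOCHI, neither past the test. COX5A stood at -0.18 (SE 0.0630, adjusted p = 0.0605) in OVSAHO and was lower in KURAMOCHI at -0.24 (SE 0.0630, adjusted p = 0.0379), a call lost in 13 of the alternatives. COX5B was not past the test in either line, at -0.03 and -0.24. COX7A2L stood at -0.02 and 0.15, also not past it.

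The complex IV isoforms COX8C, COX6B2 and COX6A2, known mainly from testis or muscle, were higher with simvastatin. COX8C and COX6A2 were dim, below the median of all genes on every array, though well above background on each. The 75th percentile that was divided out was 324 to 367 with simvastatin and 399 to 437 with L-778123. Its part in these differences was not tested. COX8C, a testis isoform of the smallest subunit, had levels of -2.57 and -2.48 with simvastatin and -3.34 and -3.19 with L-778123 in OVSAHO, and -2.01 and -1.92 with simvastatin and -2.44 and -2.37 with L-778123 in KURAMOCHI. All simvastatin arrays were above the L-778123 arrays of the same line, at 0.74 (SE 0.0794, adjusted p = 0.000947) in OVSAHO and 0.44 (SE 0.0794, adjusted p = 0.0109) in KURAMOCHI. COX6B2, a testis isoform of the subunit that links the monomers of the dimer, had levels of 4.12 and 4.27 on the simvastatin arrays of OVSAHO, 3.58 and 3.68 on its L-778123 arrays, 4.04 and 3.95 on the simvastatin arrays of KURAMOCHI and 3.68 and 3.63 on its L-778123 arrays. Here too the 4 simvastatin arrays were the higher ones, at 0.56 (SE 0.0778, adjusted p = 0.00239) in OVSAHO and 0.34 (SE 0.0778, adjusted p = 0.0233) in KURAMOCHI, but its dimmer second probe passed the test in neither line, at 0.37 and -0.17. The KURAMOCHI call was lost in 3 of the 18 settings for COX8C and in 7 for COX6B2. COX6A2, the isoform of heart and skeletal muscle, had levels of -1.72 and -2.03 with simvastatin and -2.50 and -2.29 with L-778123 in OVSAHO, and -2.87 and -3.03 with simvastatin and -3.22 and -3.14 with L-778123 in KURAMOCHI. It was called higher in OVSAHO at 0.52 (SE 0.132, adjusted p = 0.0223), a call lost in 5 of the alternatives, and stood at 0.23 (SE 0.132, adjusted p = 0.247) in KURAMOCHI. COX7B2, another testis isoform, went down instead, with levels of -2.56 and -2.41 on the simvastatin arrays of OVSAHO, -1.69 and -1.65 on its L-778123 arrays, -4.83 and -5.11 on the simvastatin arrays of KURAMOCHI and -5.01 and -4.72 on its L-778123 arrays. Its OVSAHO simvastatin arrays were the lower ones, at -0.82 (SE 0.136, adjusted p = 0.00481), and in KURAMOCHI it was not well above background on any array, so that no fold is given there.

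**Figure D2:**
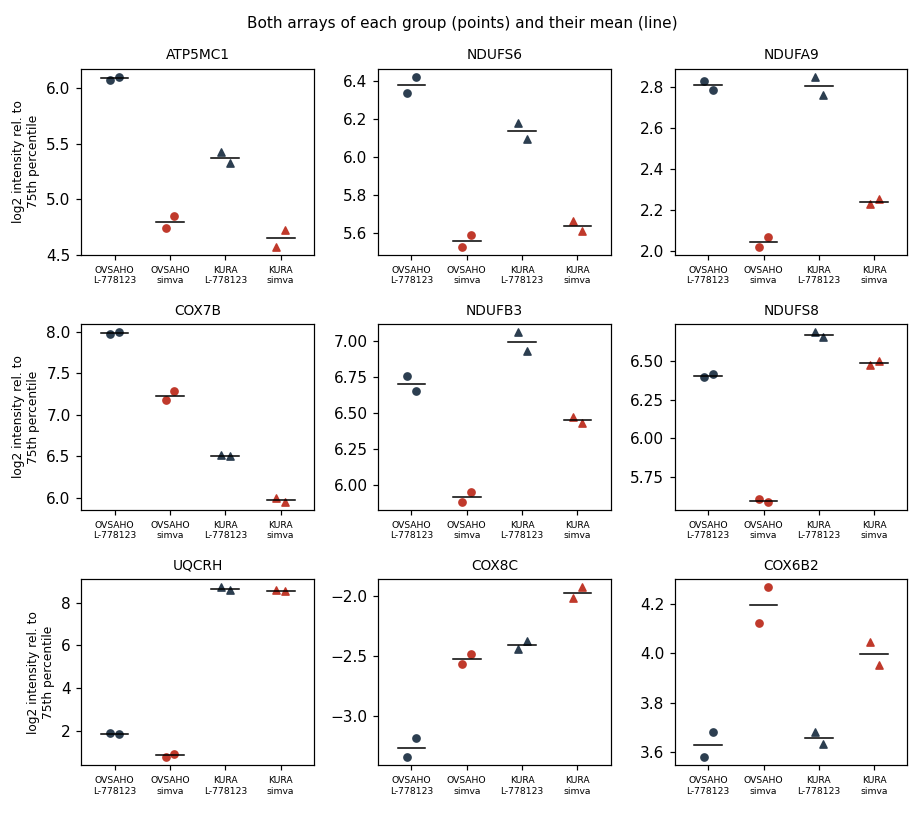
Scaled log2 intensity of 9 subunit genes on each of the 8 arrays, 2 points per group and a line at their mean, with OVSAHO as circles, KURAMOCHI as triangles, simvastatin in red and L-778123 in dark blue; each panel has its own axis, which does not start at 0. ATP5MC1 to NDUFB3 are lower with simvastatin in both lines, NDUFS8 and UQCRH are shifted mainly in OVSAHO, and COX8C and COX6B2 are higher with simvastatin.

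Complex V, ATP synthase, held the gene with the largest drug difference of all. ATP5MC1 is 1 of 3 genes for the c subunit, which forms the rotating ring of the enzyme, and the mature proteins of the 3 genes are identical. Its levels were 4.74 and 4.85 with simvastatin and 6.08 and 6.10 with L-778123 in OVSAHO, and 4.57 and 4.73 with simvastatin and 5.42 and 5.33 with L-778123 in KURAMOCHI. The simvastatin arrays were well below the L-778123 arrays in both lines and ended close together. The difference was -1.29 (SE 0.0803, adjusted p = 0.000146), a fold of 2.45, in OVSAHO and -0.73 (SE 0.0803, adjusted p = 0.00222), a fold of 1.65, in KURAMOCHI. Over all alternatives the OVSAHO value stayed between -1.35 and -1.21.

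The other c-subunit genes did not share this size of change. ATP5MC3 had levels of 8.09 and 8.21 on the simvastatin arrays of OVSAHO, 8.58 and 8.74 on its L-778123 arrays, 7.82 and 7.91 on the simvastatin arrays of KURAMOCHI and 8.29 and 8.41 on its L-778123 arrays. It was lower in both lines, at -0.50 (SE 0.0887, adjusted p = 0.00580) in OVSAHO and -0.49 (SE 0.0887, adjusted p = 0.0113) in KURAMOCHI. ATP5MC2, with levels of 8.16 and 8.25 with simvastatin and 8.23 and 8.33 with L-778123 in OVSAHO, and 7.12 and 7.20 with simvastatin and 7.37 and 7.26 with L-778123 in KURAMOCHI, passed the test in neither, at -0.08 (SE 0.0754, adjusted p = 0.448) in OVSAHO and -0.16 (SE 0.0754, adjusted p = 0.169) in KURAMOCHI.

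The subunits ATP5F1A and ATP5F1B, which form the head of the enzyme, were lower in both lines. ATP5F1A differed by -0.33 (SE 0.0543, adjusted p = 0.00459) in OVSAHO and -0.27 (SE 0.0543, adjusted p = 0.0154) in KURAMOCHI, and ATP5F1B by -0.37 (SE 0.0577, adjusted p = 0.00356) and -0.38 (SE 0.0577, adjusted p = 0.00638). ATP5IF1, which stops the enzyme from running backwards, was called lower in OVSAHO at -0.21 (SE 0.0676, adjusted p = 0.0450), a call lost in 12 of the alternatives, and stood at -0.07 (SE 0.0676, adjusted p = 0.456) in KURAMOCHI. ATP5MGL, a copy of the gene for subunit g, was lower in OVSAHO at -0.31 (SE 0.0712, adjusted p = 0.0155) and stood at -0.14 (SE 0.0712, adjusted p = 0.192) in KURAMOCHI, and its probe may read its parent gene ATP5MG.

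Whether the drug difference itself differed between the lines was tested as an interaction. It was more negative in OVSAHO for 56 of 84 genes, at a median of -0.11 against -0.01 for all genes. Past the test were 8 genes more negative in OVSAHO and 0 more positive, where 14.0% of all genes were more negative and 13.4% more positive, so the share of subunit genes was not above that of all genes. By at least 2-fold 0 passed in either direction, where 3.3% and 4.29% of all genes did. One of the 8 was COX7B2, which was not well above background on any KURAMOCHI array, so its call is no measured difference between the lines. The others were UQCRH at -0.92 (SE 0.113, adjusted p = 0.00461), NDUFS8 at -0.62 (SE 0.0727, adjusted p = 0.00394), ATP5MC1 at -0.57 (SE 0.114, adjusted p = 0.0202), and ATP5MJ, UQCR10, ATP5MF and NDUFS3 at -0.46, -0.40, -0.39 and -0.31. The last 4 were named after their values were seen. UQCRH averaged 0.86 with simvastatin and 1.88 with L-778123 in OVSAHO, far below its 8.56 and 8.65 in KURAMOCHI. Its probe may read UQCRHL, and what it read in OVSAHO was not tested. Of the 8, only UQCRH and NDUFS8 kept the call in all alternatives tried. The count was between 2 and 5 without any 1 of the 8 arrays and rose to 19 with quantile normalization and 20 with the authors' table.

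**Figure D3:**
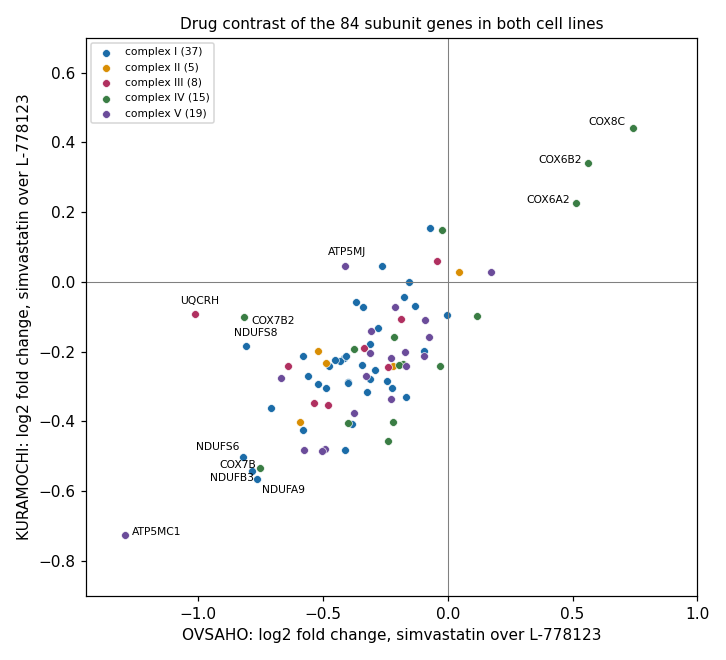
Log2 fold change of simvastatin over L-778123 in KURAMOCHI against that in OVSAHO for the 84 subunit genes, colored by complex, with gray lines at 0. Of the genes, 72 lie in the lower left part, ATP5MC1 lies farthest down in both lines, UQCRH and NDUFS8 lie far to the left but little below 0, and COX8C and COX6B2 lie in the upper right.

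Genes that work beside the subunits were counted in the same way, where 27.5% of all genes were lower and 26.4% higher in OVSAHO, and 18.4% lower and 17.1% higher in KURAMOCHI. Of 53 assembly factors, 33 were lower and 2 higher in OVSAHO, and 18 and 1 in KURAMOCHI. Of 18 genes of the TCA cycle, 12 were lower in OVSAHO and 11 in KURAMOCHI, with 0 higher. Of 77 proteins of the mitochondrial ribosome, which makes the subunits encoded in the mitochondrial genome, 38 were lower and 3 higher in OVSAHO, and 28 and 0 in KURAMOCHI. The medians in OVSAHO were -0.28 for the assembly factors, -0.32 for the TCA cycle and -0.23 for the ribosome, and in KURAMOCHI -0.16, -0.31 and -0.17. A list of other respiratory chain genes outside the name rule was less uniform. Of its 12 measured genes, 6 were lower and 3 higher in OVSAHO, and 4 and 0 in KURAMOCHI, at medians of -0.25 and -0.09. Among the assembly factors, FOXRED1, which serves complex I, was lower by at least 2-fold in OVSAHO at -1.19 (SE 0.184, adjusted p = 0.00368). In the TCA cycle this held for DLD, the lipoamide dehydrogenase shared by the pyruvate and oxoglutarate dehydrogenases, at -1.31 (SE 0.109, adjusted p = 0.000388) in OVSAHO and -0.63 (SE 0.109, adjusted p = 0.00940) in KURAMOCHI.

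Cytochrome c itself, CYCS, was lower with simvastatin, with levels of 3.78 and 3.80 on the simvastatin arrays of OVSAHO, 4.96 and 4.95 on its L-778123 arrays, 4.20 and 4.15 on the simvastatin arrays of KURAMOCHI and 4.80 and 4.77 on its L-778123 arrays. The groups did not overlap in either line, and the difference was -1.17 (SE 0.0526, adjusted p = 6.03e-05) in OVSAHO, a fold of 2.24, and -0.61 (SE 0.0526, adjusted p = 0.00101) in KURAMOCHI. CYC1, the cytochrome c1 of complex III, was lower by a like amount in both lines, at -0.42 (SE 0.0590, adjusted p = 0.00264) and -0.42 (SE 0.0590, adjusted p = 0.00464). COXFA4, a complex IV subunit once assigned to complex I, was lower at -0.79 (SE 0.0611, adjusted p = 0.000299) in OVSAHO and -0.54 (SE 0.0611, adjusted p = 0.00231) in KURAMOCHI. Its paralog COXFA4L3 was 3.56-fold higher in OVSAHO at 1.83 (SE 0.165, adjusted p = 0.000512) and was not well above background on the arrays of KURAMOCHI.

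Of 25 regulators of respiratory genes, 11 were lower and 3 higher in OVSAHO, where 27.5% of all genes were lower and 26.4% higher. In KURAMOCHI 6 were lower and 0 higher, where 18.4% and 17.1% of all genes were, and the medians were -0.14 and -0.08. PPARGC1A, a coactivator that raises mitochondrial gene expression, had levels of -2.01 and -2.03 with simvastatin and 0.98 and 0.85 with L-778123 in OVSAHO, and -0.68 and -0.81 with simvastatin and 0.26 and 0.26 with L-778123 in KURAMOCHI. In OVSAHO its simvastatin arrays lay far below those with L-778123, at -2.93 (SE 0.0734, adjusted p = 1.92e-05), a fold of 7.64. In KURAMOCHI the simvastatin arrays were again lower, at -1.003 (SE 0.0734, adjusted p = 0.000632), a fold of 2.01, and the lines differed by -1.93 (SE 0.104, adjusted p = 0.000458). Its relative PPARGC1B was lower at -0.83 (SE 0.0866, adjusted p = 0.000861) in OVSAHO and -0.54 (SE 0.0866, adjusted p = 0.00715) in KURAMOCHI.

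Of the transcription factors whose motifs were counted above, NRF1 and GABPA were among the regulators chosen to be named, and YY1 was not. NRF1 was lower at -0.48 (SE 0.0612, adjusted p = 0.00176) in OVSAHO and -0.26 (SE 0.0612, adjusted p = 0.0265) in KURAMOCHI, the latter call being lost in 8 of the alternatives. GABPA passed the test in neither line, at -0.08 (SE 0.0753, adjusted p = 0.419) and 0.23 (SE 0.0753, adjusted p = 0.0656). ESRRA, a nuclear receptor that works with PPARGC1A, went the other way and was higher in OVSAHO at 0.51 (SE 0.0710, adjusted p = 0.00238), with 0.11 (SE 0.0710, adjusted p = 0.275) in KURAMOCHI. TFAM, which packs and transcribes mitochondrial DNA, passed in neither line, at -0.05 and 0.24.

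**Figure D4:**
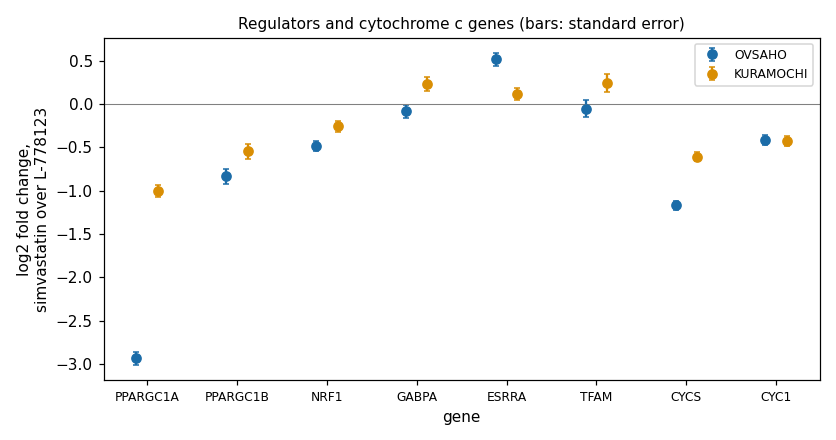
Log2 fold change of simvastatin over L-778123 in OVSAHO (blue) and KURAMOCHI (orange) for 6 regulators of respiratory genes and 2 cytochrome c genes, with bars for the standard error of the fit. PPARGC1A in OVSAHO lies lowest at -2.93, and ESRRA in OVSAHO lies at 0.51.

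The cell lines were also compared, averaged over both drugs. In OVSAHO, 58 of 84 subunit genes were higher than in KURAMOCHI and 14 lower, where 42.4% and 40.5% of all genes were, and 19 were higher and 1 lower by at least 2-fold, where 18.3% and 16.4% were. The median was 0.40 against 0.03 for all genes. With quantile normalization the split was 48 higher and 24 lower and the median 0.19. It was the same in the authors' table, and cyclic loess gave 48 and 23 with a median of 0.20, so the size of this shift depended on how arrays were brought to a common scale. The highest median by complex was that of complex IV at 0.86.

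UQCRH differed most. Its KURAMOCHI arrays, at 8.54 to 8.71, lay far above the OVSAHO arrays, at 0.79 to 1.90, and the difference was -7.23 (SE 0.0564, adjusted p = 4.22e-08), a fold of 150.5 higher in KURAMOCHI. The second probe gave -7.29, and over all alternatives the value ran from -7.41 to -7.15. On chromosome 1 the neighboring genes on either side, chosen after these values were seen, did not share this size. LRRC41 was higher in OVSAHO by 0.46 and NSUN4 by 0.13, RAD54L, 2 places away, was lower by 0.82, and FAAH, 2 places to the other side, stood at -2.78. All 4 passed the test.

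In the other direction COX7B2 was at least 5.29-fold higher in OVSAHO as processed here. This is given as a bound since it was not well above background on any KURAMOCHI array. Over the alternatives its log2 difference ran from 1.12 to 2.91, so the bound holds for this processing only. NDUFS4, with levels of 6.35 and 6.41 on the simvastatin arrays of OVSAHO, 6.47 and 6.48 on its L-778123 arrays, 4.29 and 4.24 on the simvastatin arrays of KURAMOCHI and 4.49 and 4.43 on its L-778123 arrays, was higher in OVSAHO on every array than on any KURAMOCHI array, at 2.07 (SE 0.0406, adjusted p = 2.89e-07), a fold of 4.19. ATP5F1A, with levels of 7.56 and 7.59 with simvastatin and 7.90 and 7.91 with L-778123 in OVSAHO, and 5.55 and 5.58 with simvastatin and 5.87 and 5.80 with L-778123 in KURAMOCHI, stood at 2.04 (SE 0.0384, adjusted p = 2.58e-07), a fold of 4.12. The other subunit of the head, ATP5F1B, stood at 1.66 (SE 0.0408, adjusted p = 5.83e-07), and NDUFB7, an accessory subunit of the complex I membrane arm, at 1.70 (SE 0.0539, adjusted p = 1.36e-06). All of these were higher on every OVSAHO array. Lower in OVSAHO besides UQCRH were COX8C at -0.70 (SE 0.0561, adjusted p = 6.38e-05), NDUFS8 at -0.58 (SE 0.0363, adjusted p = 2.19e-05), COX6C, a small complex IV subunit, at -0.45 (SE 0.0504, adjusted p = 0.000307) and NDUFS1 at -0.44 (SE 0.0386, adjusted p = 9.99e-05).

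Some named genes had no settled direction between the lines. ATP5MC3 was called higher in OVSAHO at 0.30 but stood at -0.03 with quantile normalization and with the authors' table at -0.04. ATP5IF1, at 0.07, and NDUFS6, at 0.08, were not past the test and were called lower in OVSAHO with quantile normalization, at -0.27 and -0.11.

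**Figure D5:**
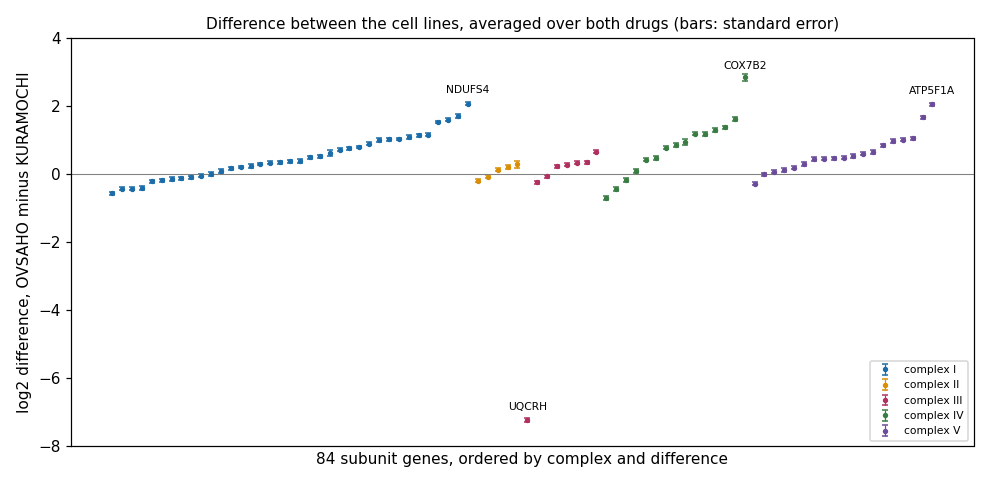
Difference in log2 intensity between OVSAHO and KURAMOCHI, averaged over both drugs, for the 84 subunit genes in order of complex and size, with bars for the standard error. Most points lie above 0, NDUFS4, ATP5F1A and COX7B2 lie at 2.04 or more, and UQCRH lies alone at -7.23.

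Different probes of 1 gene did not always give the same call. Of the 84 genes, 19 had more than 1 kept probe. In OVSAHO all probes of 14 of these shared 1 call and the probes of 3 differed in sign, and in KURAMOCHI 9 shared 1 call and 6 differed in sign. In neither line was a gene called higher by one probe and lower by another.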

How the data were processed

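Total RNA of OVSAHO and KURAMOCHI cells was hybridised to 8 one-color Agilent arrays on 1 slide, where every group had its own positions and the effect of position cannot be told apart from that of the group. Agilent Feature Extraction 11.5.1.1, per the submitters' processing notes, gave the deposited processed signal, an intensity the software had corrected for background, as well as the spot median intensity. The authors also deposited a table of normalized intensity for the same arrays, which was used as an alternative. Control spots and outlier spots, 58 to 99 per array, were left out, spots of a probe were averaged, and the array's 75th percentile, an intensity of 324 to 437, was divided out before log2. Of 58162 probes, the 33753 that cleared background on each array of some group were kept. The number of arrays limits the precision.

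Symbols came from RefSeq accessions, and a gene took its brightest kept probe. Comparisons used the linear models of limma 3.58.1 under R 4.3.3 with 4 group means, 1 shared spread, moderated variances and Benjamini-Hochberg adjustment over all kept probes. The fit was tested on simulated data. Genes given in full are the 5 largest rises and falls among called members in each drug contrast and between lines, the 3 largest in the interaction and a list of members by role, with other genes named as the text says, and some of these genes are not reported here. The members and lists were chosen with earlier results of these data known. Alternatives covered normalization, background correction with normexp at an offset of 50 (spot medians in place of means), the authors' table, the filter, the groups in the fit, the replicate number, the methods' analysis of variance, the probe per gene and each array left out. Cyclic loess was added after seeing the data. Plots used matplotlib 3.10.9 and Python 3.11.15.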

Additional observations from a re-analysis of the deposited data

Results flagged for a closer look

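The drug difference differed between the cell lines past the test of the interaction (limma, adjusted over all kept probes) for 13 of the genes named above. More negative in OVSAHO were PPARGC1A at -1.93, UQCRH at -0.92, COX7B2 at -0.72, DLD at -0.68, NDUFS8 at -0.62, ATP5MC1 at -0.57, CYCS at -0.56, ATP5MJ at -0.46, UQCR10 at -0.40, ATP5MF at -0.39 and NDUFS3 at -0.31. More positive were ESRRA at 0.40 and COXFA4L3 at 1.79. COX7B2 and COXFA4L3 were not well above background on any KURAMOCHI array, so their values are no measured difference between the lines. Of those measured in both lines, PPARGC1A, UQCRH, NDUFS8 and CYCS kept the call in all alternatives tried. The UQCRH probe may read UQCRHL, and what it read in OVSAHO, where its signal was low, was not tested.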

How the results depend on the processing

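With 2 arrays per group, small differences were near the limit of the test. In OVSAHO, 46 of the 58 genes called lower kept that call in all alternatives other than the fit of the compared groups alone and the methods' analysis of variance with Tukey's test, and in KURAMOCHI 13 of 46 did. In no alternative did fewer than 74 genes in OVSAHO or 70 in KURAMOCHI have a negative sign. The OVSAHO median of -0.33 was -0.38 with quantile normalization, -0.37 with normexp and -0.38 with the authors' table, and ran from -0.35 to -0.29 with arrays left out. In KURAMOCHI the 46 genes called lower became 16 without a filter on dim probes, 24 with only the groups compared, 20 with Tukey's test and 15 to 40 with arrays left out, and the 2 called higher became 1 without the filter, 0 with Tukey's test and 0 to 2 with arrays left out. The KURAMOCHI median was -0.17 with quantile normalization and with the authors' table. For the interaction, the 8 genes more negative in OVSAHO became 19 with quantile normalization, 13 with normexp, 20 with the authors' table, 14 with cyclic loess, 2 without the filter and 2 to 5 with arrays left out, 1 gene was more positive by analysis of variance, and the median was -0.21, -0.22 and -0.16 with quantile normalization, the authors' table and cyclic loess. Between the lines, the 14 genes lower in OVSAHO became 24, 24 and 23 under these 3 settings, and the median of 0.40 became 0.19, 0.19 and 0.20. Under them ATP5IF1 stood at -0.27, -0.27 and -0.23 and ATP5MC3 at -0.034, -0.035 and -0.0044, and NDUFS6 stood at -0.11 and -0.11 under the first 2. With the median over probes SDHA in KURAMOCHI stood at -0.28 and UQCRB in OVSAHO at 0.26. The cause of these changes was not tested. The differences between replicates 1 and 2 correlated at 0.000848 to 0.0556 between groups, so no shared effect of the replicate number of the titles was seen. This does not settle whether samples of the same number were handled together. With the replicate number as a block 55 genes were lower in OVSAHO, 35 in KURAMOCHI and 5 in the interaction. Without the filter the median of all genes shifted to 0.11 in OVSAHO.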
